A study of Mus musculus with 15 samples.

Results

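The 10 genes described here release fatty acids from phospholipids or turn arachidonic acid into leukotrienes and prostanoids: Pla2g2d, Pla2g4a, Pla2g7, Pla2g15, Alox5, Alox5ap, Ltc4s, Ptgs1, Ptgs2 and Hpgds. They were taken by gene name, 1 Ensembl gene each, from a table of 40510 genes, and all 10 were among the 13284 genes with enough reads to be tested. The cells were alveolar macrophages, phagocytes that live in the airspace, washed out of the lungs of C57BL/6 mice. The mice carried a knockout of Cybb (KO) or were wild type (WT). Cybb encodes the gp91phox subunit of the phagocyte NADPH oxidase, and its loss is the X-linked form of chronic granulomatous disease (CGD). Mice were naive, that is, unchallenged. The sort kept CD45+ cells positive for SiglecF and CD11c and negative for Ly6G, a neutrophil marker, and then split them by CD11b. The 5 groups, of 3 libraries each, were CD11b-high cells of 12-week KO mice, CD11b-low cells of 12-week KO mice, CD11b-low cells of 12-week WT mice, CD11b-low cells of 4-week KO mice and CD11b-low cells of 4-week WT mice. No CD11b-high WT group was analysed here, so the CD11b-high state and the knockout cannot be told apart in any comparison of CD11b-high KO with WT cells. Each library pooled 2 to 3 mice to reach about 50000 cells, so a replicate is a pool and the spread between single mice is not seen.

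Phospholipases A2 cut a fatty acid from a membrane or lipoprotein phospholipid, and arachidonic acid freed in this way is the substrate of both branches that follow. In the leukotriene branch, 5-lipoxygenase, presented with arachidonate by its activating protein at the nuclear membrane, makes leukotriene A4, which leukotriene C4 synthase joins to glutathione or leukotriene A4 hydrolase turns into leukotriene B4. In the prostanoid branch, the cyclooxygenases make prostaglandin H2, which a set of terminal synthases converts to prostaglandins or thromboxane. Alveolar macrophages are a known source of leukotrienes and thromboxane in the lung, and they also break down surfactant phospholipid in their lysosomes.

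Libraries held 22856331 to 36458893 counts, with a median of 32415469, and the 10 genes took 0.187% to 0.514% of them. Levels are given as CPM, counts divided by a library size that was scaled by the TMM method. Cybb, the targeted gene, lay between 129 and 221 CPM in the 9 KO libraries and between 899 and 2318 CPM in the 6 WT libraries, so each library matched its genotype label. All 14 listed alveolar macrophage markers had counts in each group. This alone does not show identity, since all 17 T and NK cell markers also had counts in both KO groups of 12 weeks. In WT CD11b-low cells of 12 weeks, replicate 1 stood apart: the chi-square of its counts against replicates 2 and 3 was 416 and 372 per gene, against 68.9 between those 2 libraries and at most 262 between any other replicates of a group. Calls of the 10 genes that changed without that library are therefore named. Marker lists of other cells also differed between groups. Summed T and NK cell markers came to 99.2 to 231 CPM in CD11b-high KO cells and 67.9 to 161 CPM in CD11b-low KO cells of 12 weeks, against 4.29 to 10.2 CPM in WT cells of that age. Hemoglobin and other red cell markers summed to 571 to 1309 CPM in WT cells of 12 weeks, against 53.0 to 181 CPM in CD11b-high and 68.7 to 147 CPM in CD11b-low KO cells.

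The upstream sequence is shown for Pla2g2d, whose difference between KO and WT cells at 12 weeks was the largest among the 10 genes, and for the 2 cyclooxygenase genes, which catalyse the same step but differed in level and pattern. Each line is the 250 bases before the annotated start, 5′ to 3′ on the gene's strand, from RefSeq on GRCm38.p6: chr4:138775485-138775734, plus strand, for Pla2g2d; chr2:36230176-36230425, plus strand, for Ptgs1; and chr1:150099781-150100030, plus strand, for Ptgs2. Capitals mark the motif letters found.
Pla2g2d: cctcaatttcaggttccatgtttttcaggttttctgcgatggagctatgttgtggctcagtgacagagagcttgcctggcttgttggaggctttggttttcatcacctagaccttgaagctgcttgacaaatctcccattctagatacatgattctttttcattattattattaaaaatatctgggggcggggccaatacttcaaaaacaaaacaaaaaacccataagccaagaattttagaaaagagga
Ptgs1: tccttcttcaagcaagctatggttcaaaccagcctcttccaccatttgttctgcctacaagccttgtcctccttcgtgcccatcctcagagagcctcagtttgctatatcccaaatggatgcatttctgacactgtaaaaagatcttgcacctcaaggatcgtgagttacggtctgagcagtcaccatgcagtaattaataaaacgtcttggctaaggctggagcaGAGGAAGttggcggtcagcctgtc
Ptgs2: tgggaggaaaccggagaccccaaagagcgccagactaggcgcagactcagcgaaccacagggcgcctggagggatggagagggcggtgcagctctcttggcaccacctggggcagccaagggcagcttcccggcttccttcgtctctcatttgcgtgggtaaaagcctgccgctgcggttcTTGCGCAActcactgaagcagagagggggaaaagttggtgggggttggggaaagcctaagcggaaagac
Both strands were searched for 6 letter strings, chosen after the sequences had been seen: the C/EBP palindrome TTGCGCAA, the E-box CACGTG, the AP-1 site TGANTCA, the PU.1-type ETS string GAGGAAG, the TATA string TATAAA and the cyclic AMP response element TGACGTCA. The Ptgs2 window held TTGCGCAA 69 bases before the start, a string present in 0.17% of the first windows of 27025 genes. The Ptgs1 window held GAGGAAG 24 bases before the start, on the gene's strand, as did 10.4% of windows on either strand. None of the 6 strings lay in the Pla2g2d window. E-box, AP-1, TATA and cyclic AMP strings occurred in 6.05%, 6.87%, 13% and 1.62% of windows. RefSeq entries were matched for 9 of the 10 genes, the exception being Alox5ap.

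Per kb of exons, the leukotriene genes and the lysosomal phospholipase were the most abundant of the set in each of the 5 groups. In CD11b-high KO cells the highest group means were those of Alox5ap at 701 CPM per kb, Ltc4s at 195, Pla2g15 at 133 and Alox5 at 65.3 CPM per kb. Below them came Pla2g7 at 20.8, Pla2g2d at 14.7, Pla2g4a at 14.0, Ptgs1 at 10.7, Hpgds at 5.21 and Ptgs2 at 0.480 CPM per kb. Alox5ap, Ltc4s, Pla2g15 and Alox5 held the first 4 places in this order in each group, and Ptgs2 held the last. The other 5 genes changed places between groups. Pla2g7 was at place 5 in CD11b-high KO cells (12.4 to 35.6 CPM per kb) and place 8 elsewhere, and Pla2g2d at place 6 in both KO groups of 12 weeks and place 9 elsewhere. Hpgds held place 6 in WT cells of 12 weeks and places 7 to 9 elsewhere, Ptgs1 places 6 to 8, and Pla2g4a place 7 in CD11b-high KO cells and place 5 elsewhere. Neighbours among the lower places were close. In CD11b-high KO cells the library ranges of Pla2g2d (3.20 to 28.5 CPM per kb), Pla2g4a (12.1 to 16.8) and Ptgs1 (5.47 to 14.2) overlapped. In WT cells of 12 weeks, the ranges of Ltc4s (82.0 to 533 CPM per kb), Pla2g15 (86.9 to 176) and Alox5 (41.8 to 163) overlapped as well.

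**Figure D1:**
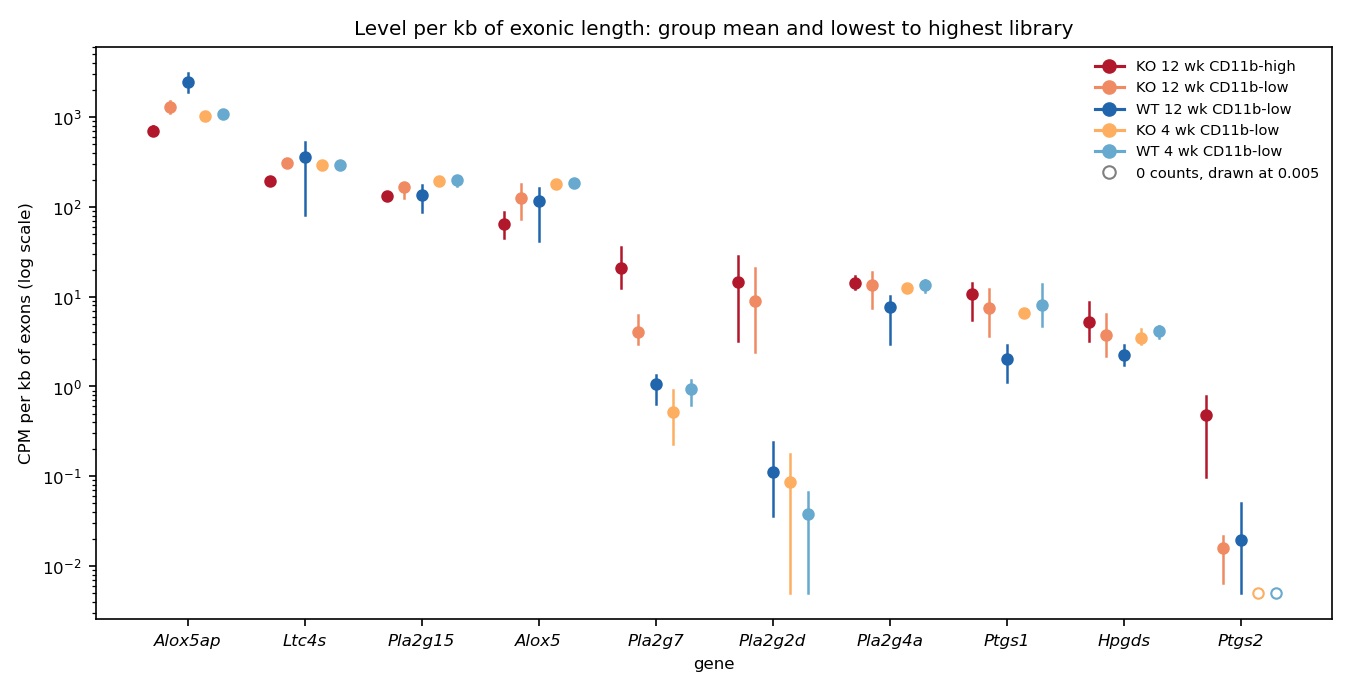
Group mean (point) and lowest to highest library (line) of each gene in CPM per kb of exonic length, on a log axis, for the 5 groups of 3 libraries. A mean of 0 is an open point, and it and any line end at 0 are drawn at 0.005. Alox5ap is the most abundant in each group, at 701 CPM per kb in CD11b-high KO cells and 2454 CPM per kb in WT cells of 12 weeks, and Ptgs2 the least.

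At 12 weeks some of the genes were higher and 1 was lower in KO than in WT cells. In CD11b-low cells, Pla2g2d, Pla2g7 and Ptgs1 were higher and Alox5ap was lower in KO than in WT cells, at an adjusted p under 0.05 (edgeR quasi-likelihood test, Benjamini-Hochberg over all 13284 genes). These were 4 of 10 genes, where 3.10% of all tested genes passed, 2.60% higher and 0.497% lower. The genes were chosen with earlier results of these data known. Shares and medians over all genes, here and below, are therefore a description and do not test the set. CD11b-high KO cells differed from the same WT cells in 6 of 10 genes, with Ptgs2 and Hpgds added to those higher. Of all genes 14.8% passed there, 9.23% higher and 5.60% lower. Between CD11b-high and CD11b-low KO cells, 1 of 10 genes passed, Pla2g7, higher in CD11b-high cells, where 0.693% of all genes passed and 0.572% were higher. In 4-week mice 0 of 10 genes passed between KO and WT cells with edgeR, 0 at an unadjusted p under 0.05, and 0 with DESeq2 or limma voom. Of all genes 0.0979% passed there, and 1.50% had an unadjusted p under 0.05. Ptgs2 had 0 counts in all 6 libraries of 4 weeks and could not pass between them, and Pla2g2d had 0 to 14 counts in each. These comparisons share libraries, so their values are given side by side and are not independent of each other. The median log2 fold change of the 10 genes was 0.51 for KO over WT in CD11b-low cells of 12 weeks, beside -0.04 over all tested genes, and 1.05 for CD11b-high KO over WT, beside -0.01.

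**Figure D2:**
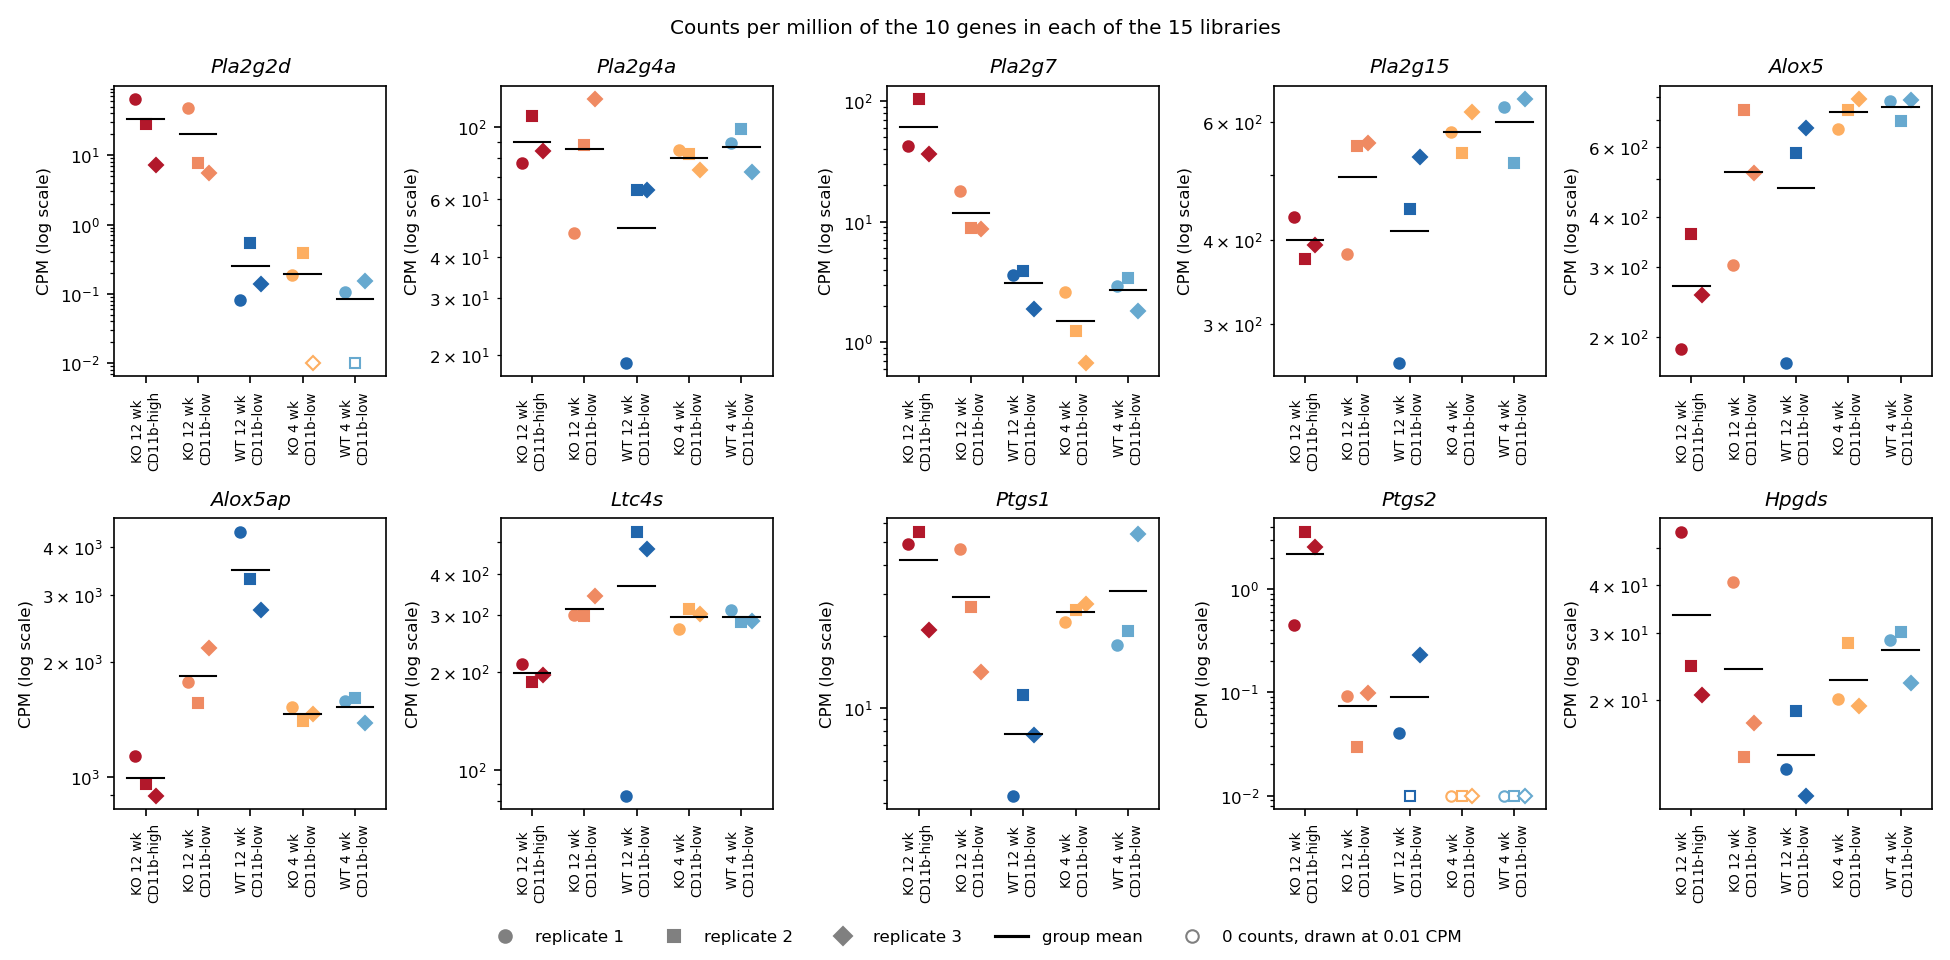
CPM (log axis, a different range in each panel) of the 10 genes in each of the 15 libraries, with replicates 1 to 3 as circle, square and diamond and the group mean as a bar; open symbols are libraries with 0 counts, drawn at 0.01 CPM. Pla2g2d and Pla2g7 separate both KO groups of 12 weeks from WT cells of 12 weeks, and replicate 1 of those WT cells is the lowest of its group for Ltc4s, Alox5, Pla2g4a and Pla2g15 and the highest for Alox5ap.

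Among the phospholipases, Pla2g2d showed the largest difference. It encodes a secreted phospholipase A2 (ENSMUSG00000041202, chr4:138775735-138782046, GENCODE M21 on GRCm38) that is known in mice from dendritic cells and macrophages of lymphoid tissue. It had 64.0, 27.9 and 7.19 CPM in the 3 CD11b-high KO libraries and 47.4, 7.75 and 5.45 CPM in the 3 CD11b-low KO libraries of 12 weeks, against 0.0805, 0.541 and 0.137 CPM in WT libraries of that age. All 6 KO libraries lay above all 3 WT libraries, while the 2 KO groups overlapped and did not pass against each other. Replicate 1 was the highest within both KO groups. At 4 weeks it had 0.184, 0.395 and 0 CPM in KO and 0.106, 0 and 0.151 CPM in WT libraries, which overlapped. The WT values at 12 weeks rest on 2, 17 and 3 counts, against 1555, 260 and 167 counts in the CD11b-low KO libraries. Pla2g2d met the filter on low counts through the KO libraries of 12 weeks, where it was high. Its calls against the other groups are therefore a description. The difference between CD11b-low KO and WT cells was 6.21 ± 1.2 on the log2 scale (SE, adjusted p = 0.0119, edgeR), and that between CD11b-high KO and WT cells was 6.91 ± 1.22 (adjusted p = 0.00197). Within CD11b-low KO cells it was higher at 12 than at 4 weeks, by 6.73 ± 1.22 (adjusted p = 0.00611). The first of these values was 4.59 without CD11b-low KO replicate 1 and 7.51 without WT replicate 2. Its adjusted p was 0.0766 without WT replicate 1, 0.0537 without WT replicate 3 and 0.103 with limma voom. The CD11b-high value came to 5.99 without CD11b-high replicate 1 and 8.21 without WT replicate 2, with an adjusted p under 0.05 in both. The age value came to 5.12 without CD11b-low KO replicate 1 of 12 weeks, 7.77 without 4-week KO replicate 2 and 6.12 without 4-week KO replicate 3, each with an adjusted p under 0.05.

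Pla2g7 was the 1 gene of the set that passed between CD11b-high and CD11b-low KO cells. It encodes the lipoprotein-associated phospholipase A2 that inactivates platelet-activating factor (PAF; ENSMUSG00000023913, chr17:43568098-43612201). It had 42.0, 104 and 36.1 CPM in CD11b-high KO libraries, 18.0, 8.82 and 8.68 CPM in CD11b-low KO libraries and 3.58, 3.88 and 1.87 CPM in WT libraries of 12 weeks. The 3 groups formed 3 steps without overlap, with replicate 2 highest in the CD11b-high group and replicate 1 in the CD11b-low KO group. Libraries of 4 weeks had 2.63, 1.24 and 0.670 CPM in KO and 2.91, 3.40 and 1.81 CPM in WT mice, with overlap. The log2 difference was 2.35 ± 0.48 between CD11b-high and CD11b-low KO cells (SE, adjusted p = 0.0321, edgeR) and 4.27 ± 0.53 between CD11b-high KO and WT cells (adjusted p = 4.93e-05). It was 1.92 ± 0.49 between CD11b-low KO and WT cells of 12 weeks (adjusted p = 0.0411) and 2.97 ± 0.51 between 12 and 4 weeks in CD11b-low KO cells (adjusted p = 0.00279). The annotation places an antisense gene, 1700071M16Rik, over Pla2g7, and as the strand setting of the counting is not given in the sources used here, reads of the 2 cannot be told apart.

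The Pla2g7 step between CD11b-high and CD11b-low KO cells was lost without 1 of 5 libraries: CD11b-high replicates 2 and 3 (adjusted p = 0.167 and 0.0525, edgeR), CD11b-low KO replicates 2 and 3 (0.200 and 0.180) and WT replicate 1 of 12 weeks (0.0505); the Pla2g7 fold was 1.72 on the log2 scale without CD11b-high replicate 2. The difference between CD11b-low KO and WT cells at 12 weeks was lost without 1 of 8 libraries, at adjusted p values of 0.0558 to 0.119: CD11b-low KO replicates 1 and 2, the 3 WT libraries of 12 weeks, 4-week KO replicate 2 and 4-week WT replicates 1 and 2. It was lost too with limma voom (0.0917), and the step between KO cells with only those 2 groups fitted (0.0985). The CD11b-high value against WT came to 3.64 without CD11b-high replicate 2, and the age value to 3.63 without 4-week KO replicate 1, both with an adjusted p under 0.05.

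Pla2g4a and Pla2g15 did not pass in any of the 6 comparisons between groups with edgeR, the filter on low counts and all libraries. Pla2g4a, the cytosolic phospholipase A2 that favours arachidonate (ENSMUSG00000056220, chr1:149829618-149961290, minus strand), had 77.2, 108 and 84.2 CPM in CD11b-high KO, 47.5, 87.9 and 121 CPM in CD11b-low KO and 18.9, 64.3 and 64.0 CPM in WT libraries of 12 weeks. The CD11b-high libraries lay above the WT ones and the CD11b-low KO libraries overlapped both, with WT replicate 1 far below the rest; the log2 difference was 0.87 ± 0.37 between CD11b-high KO and WT cells (SE, adjusted p = 0.129, edgeR) and 0.80 ± 0.37 between CD11b-low KO and WT cells (0.235). In WT cells it was -0.82 ± 0.37 between 12 and 4 weeks (0.139). With no filter on low counts the first and the last of these passed (0.0383 and 0.0427), and with limma voom the last did (0.0494). At 4 weeks Pla2g4a had 85.0, 82.5 and 74.0 CPM in KO and 89.4, 98.4 and 72.9 CPM in WT libraries. Pla2g15, the lysosomal phospholipase A2 that macrophages use to degrade surfactant lipid (ENSMUSG00000031903, chr8:106150399-106164715), had 432, 375 and 393 CPM in CD11b-high KO, 381, 552 and 558 CPM in CD11b-low KO and 262, 444 and 532 CPM in WT libraries of 12 weeks, all 3 groups overlapping. At 4 weeks it had 579, 539 and 620.3 CPM in KO and 629.8, 519.7 and 648 CPM in WT libraries. The log2 difference of Pla2g15 between 12 and 4 weeks in WT cells was -0.54 ± 0.25 (SE, adjusted p = 0.149, edgeR). Pla2g4a and Ptgs2 are neighbours on chromosome 1, with starts 139 kb apart.

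In the leukotriene branch, Alox5ap was the one gene that passed with edgeR, the filter on low counts and all libraries, and it was lower in KO cells, unlike Pla2g2d and Pla2g7. Alox5ap (ENSMUSG00000060063, chr5:149264767-149288153) encodes the 5-lipoxygenase activating protein. It had 1134, 959 and 895 CPM in CD11b-high KO, 1781, 1566 and 2174 CPM in CD11b-low KO and 4402, 3315 and 2737 CPM in WT libraries of 12 weeks. The groups again formed 3 steps with no overlap, but with WT cells at the top. At 4 weeks KO libraries had 1527, 1404 and 1467 CPM and WT libraries 1581, 1612 and 1389 CPM, which overlapped. The log2 difference was -0.92 ± 0.23 between CD11b-low KO and WT cells of 12 weeks (SE, adjusted p = 0.0361, edgeR) and -1.81 ± 0.23 between CD11b-high KO and WT cells (adjusted p = 6.24e-05). Between CD11b-high and CD11b-low KO cells it was -0.89 ± 0.23, which did not pass with all libraries (adjusted p = 0.0974) and passed without WT replicate 1 (0.0198), with DESeq2 (0.00445) and with limma voom (0.0191). In WT cells Alox5ap rose with age, by 1.19 ± 0.23 between 12 and 4 weeks (adjusted p = 0.00458). The difference between CD11b-low KO and WT cells was lost without 1 of 10 libraries, at adjusted p values of 0.0514 to 0.126: CD11b-low KO replicates 1 and 2, WT replicates 1 and 2 of 12 weeks and each of the 6 libraries of 4 weeks. It was also lost when only these 2 groups were fitted (adjusted p = 0.366). An antisense gene, Gm19719, overlaps Alox5ap, with the same uncertainty as for Pla2g7.

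For Alox5 and Ltc4s, calls differed between settings, the removal of WT replicate 1 of 12 weeks among them. Alox5 (ENSMUSG00000025701, chr6:116410077-116461178, minus strand) encodes 5-lipoxygenase itself. It had 187, 363 and 254 CPM in CD11b-high KO, 303, 742 and 516 CPM in CD11b-low KO and 172, 581 and 669.6 CPM in WT libraries of 12 weeks, and 667, 745 and 792 CPM in KO and 783, 697 and 787 CPM in WT libraries of 4 weeks. The WT group of 12 weeks spanned nearly the whole range, with replicate 1 the lowest of all 15 libraries. Ltc4s, leukotriene C4 synthase (ENSMUSG00000020377, chr11:50236461-50238616, minus strand), had 211, 186 and 196 CPM in CD11b-high KO, 298, 298 and 343 CPM in CD11b-low KO and 83.2, 540.2 and 478 CPM in WT libraries of 12 weeks. All CD11b-high libraries lay below all CD11b-low KO libraries, and the WT libraries fell on both sides. Libraries of 4 weeks were within a narrow band for Ltc4s, at 269.9, 312 and 301 CPM in KO and 311, 284 and 287 CPM in WT mice.

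With edgeR and all libraries, neither gene passed in any comparison after the filter on low counts. The log2 difference of Alox5 between CD11b-high and CD11b-low KO cells was -0.96 ± 0.40 (SE, adjusted p = 0.404, edgeR), and that of Ltc4s between CD11b-high KO and WT cells was -0.89 ± 0.41 (adjusted p = 0.156). Other settings that kept all libraries called both genes lower in CD11b-high KO than in WT cells: limma voom (Ltc4s -1.27, 0.00122) and edgeR with no filter (Ltc4s -0.93, 0.0160). With no filter Alox5 was also lower in CD11b-high than in CD11b-low KO cells (-1.01, 0.0252), and with limma voom Ltc4s was higher in WT cells of 12 than of 4 weeks. Without WT replicate 1 of 12 weeks, Ltc4s was lower in CD11b-low KO than in WT cells, by -0.70 ± 0.16 (adjusted p = 0.0327), in CD11b-high than in CD11b-low KO cells, by -0.67 ± 0.14 (0.0344), and in CD11b-high KO than in WT cells, by -1.37 ± 0.16 (6.4e-05). Ltc4s was then also higher in WT cells of 12 than of 4 weeks, by 0.79 ± 0.16 (adjusted p = 0.00667), and Alox5 lower in CD11b-high KO than in WT cells, by -1.23 ± 0.30 (0.0132). Leaving that library out ended the calls of Pla2g2d, Pla2g7, Ptgs1 and Alox5ap between CD11b-low KO and WT cells, so that Ltc4s was the 1 gene of the 10 that then passed there. The log2 differences there were then 5.79 for Pla2g2d (adjusted p = 0.0766, edgeR) and 2.02 for Pla2g7 (0.119). They were 1.61 for Ptgs1 (0.176) and -0.72 for Alox5ap (0.0638). An antisense gene, Gm26542, overlaps Ltc4s.

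The 2 cyclooxygenases were unlike each other. Ptgs1, the constitutive cyclooxygenase (ENSMUSG00000047250, chr2:36230426-36252272), had 48.9, 55.1 and 21.3 CPM in CD11b-high KO, 46.7, 26.6 and 14.3 CPM in CD11b-low KO and 4.31, 11.3 and 7.76 CPM in WT libraries of 12 weeks. Both KO groups lay above the WT libraries, and replicate 3 was the lowest in both. At 4 weeks it had 23.0, 25.9 and 27.4 CPM in KO and 18.4, 21.0 and 54.0 CPM in WT libraries, so the WT libraries of 12 weeks were below all others. The log2 difference was 1.90 ± 0.49 between CD11b-low KO and WT cells of 12 weeks (SE, adjusted p = 0.0420, edgeR) and 2.42 ± 0.50 between CD11b-high KO and WT cells (adjusted p = 0.00355). In WT cells Ptgs1 fell with age, by -1.99 ± 0.49 between 12 and 4 weeks (adjusted p = 0.0115); this was lost without WT replicate 1 of 12 weeks (0.0539) and without 4-week WT replicate 3 (0.0812), where the value was -1.34. The call between CD11b-low KO and WT cells was lost without 1 of 9 libraries, at adjusted p values of 0.0501 to 0.176: CD11b-low KO replicates 1 and 2, the 3 WT libraries of 12 weeks, the 3 KO libraries of 4 weeks and 4-week WT replicate 2. It was lost too with the replicate number as a block (adjusted p = 0.0625), with only these 2 groups fitted (0.0664) and with limma voom (0.126). The unclassified gene Gm43621 overlaps Ptgs1 on the other strand.

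Ptgs2, the inducible cyclooxygenase (ENSMUSG00000032487, chr1:150100031-150108227), was detected mainly in CD11b-high KO cells. It had 0.448, 3.61 and 2.54 CPM in CD11b-high KO libraries, from 11, 77 and 82 counts. CD11b-low KO libraries of 12 weeks held 3, 1 and 3 counts and WT libraries of that age 1, 0 and 5 counts. All 3 CD11b-high libraries lay above all others, and the 6 libraries of 4 weeks had 0 counts, which allows up to 0.0717 to 0.103 CPM in a library (3 counts). Summed over libraries and scaled by their size, Ptgs2 was 30.1 times as abundant in CD11b-high as in CD11b-low KO cells (170 against 7 counts; exact 95% interval 14.3 to 76.1, covering counting error only) and 28.3 times as abundant as in WT cells (170 against 6 counts, 12.8 to 78.3). Ptgs2 met the filter on low counts only through the CD11b-high KO libraries, where it was high, so its calls there are a description. The fitted log2 difference was 4.68 ± 1.07 between CD11b-high KO and WT cells (SE, adjusted p = 0.0110, edgeR) and 4.85 ± 1.06 between CD11b-high and CD11b-low KO cells, where it did not pass (adjusted p = 0.0588). The second passed with DESeq2 (adjusted p = 0.00246), with no filter on low counts (1.69e-05), without CD11b-high replicate 1 (0.0186) and without WT replicate 3 of 12 weeks (0.0479). The first was lost without CD11b-high replicate 2 (0.0621), and its value came to 4.02 without WT replicate 2 and 6.63 without WT replicate 3.

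Hpgds, the hematopoietic prostaglandin D synthase (ENSMUSG00000029919, chr6:65117293-65144908, minus strand), had 55.4, 24.5 and 20.5 CPM in CD11b-high KO, 40.8, 14.1 and 17.4 CPM in CD11b-low KO and 13.1, 18.7 and 11.2 CPM in WT libraries of 12 weeks. Replicate 1 was the highest within both KO groups, as for Pla2g2d, and the CD11b-high libraries lay above the WT ones while the CD11b-low KO libraries overlapped them. At 4 weeks it had 20.0, 28.1 and 19.3 CPM in KO and 28.7, 30.2 and 22.1 CPM in WT libraries. The log2 difference between CD11b-high KO and WT cells was 1.22 ± 0.40 (SE, adjusted p = 0.0487, edgeR) and was lost in 17 of 22 other settings, 13 of them the removal of 1 library, at adjusted p values of 0.0508 to 0.273 in these 13. Without CD11b-high replicate 1 the value was 0.64 (0.273). The other 12 libraries were CD11b-high replicate 2, CD11b-low KO replicates 2 and 3, and all WT libraries of 12 weeks and all libraries of 4 weeks. In WT cells Hpgds differed by -0.91 ± 0.40 between 12 and 4 weeks, which did not pass with edgeR (0.124) and passed with limma voom (0.0189) and with no filter (0.0367). The Hpgds window also held GAGGAAG, 49 bases before its RefSeq start, and a processed pseudogene, Gm17147, overlaps the gene.

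**Figure D3:**
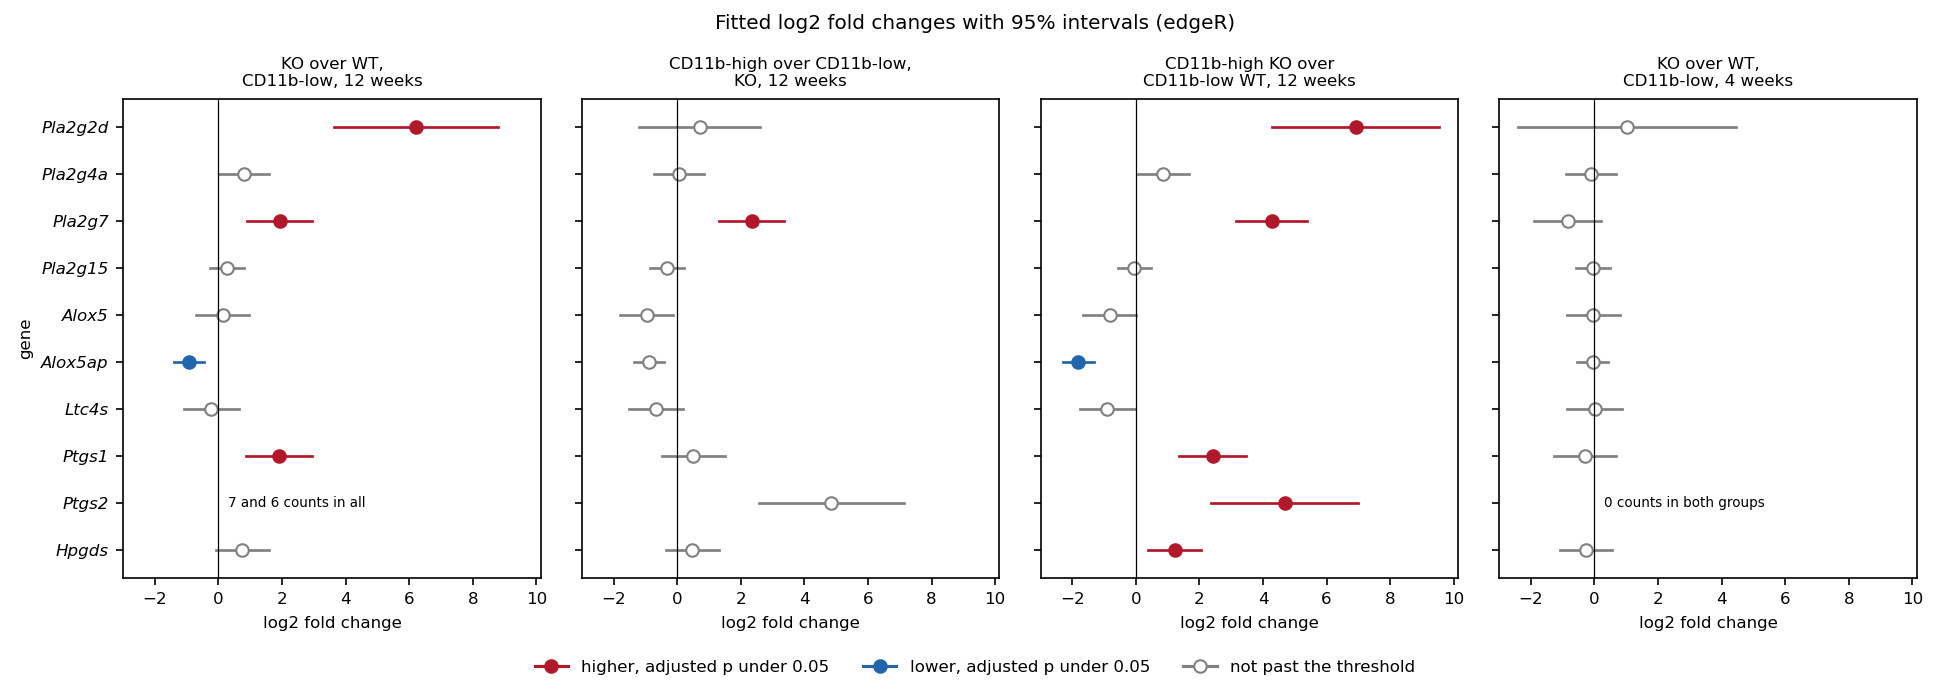
Fitted log2 fold change (point) with its 95% interval (line) of each gene in 4 comparisons, filled where the adjusted p was under 0.05. Pla2g2d, Pla2g7 and Ptgs1 lie to the right of 0 and Alox5ap to the left in both comparisons of KO with WT cells of 12 weeks; for Ptgs2 in CD11b-low cells the counts (7 in KO and 6 in WT cells of 12 weeks, 0 at 4 weeks) are given in place of a fold.

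Age was tested within KO and within WT cells, and the difference between the genotypes passed for 0 of 10 genes with edgeR. In CD11b-low KO cells 2 of 10 genes passed between 12 and 4 weeks, Pla2g2d and Pla2g7, both higher at 12 weeks, where 6.89% of all genes passed and 4.81% were higher. In WT cells 2 of 10 passed, Alox5ap higher and Ptgs1 lower at 12 weeks. This count was near the share of all genes, of which 17.2% passed, 8.79% higher and 8.39% lower. The interaction of genotype and age, the KO over WT difference at 12 weeks less that at 4 weeks, passed for 0 of 10 genes with edgeR, for 1 with DESeq2 and for 0 with limma voom. For Ptgs2, with 0 counts at 4 weeks, no interaction value could be given. Of all genes 0.248% passed with edgeR. At an unadjusted p under 0.05 it passed for 4 of 10 genes and 8.30% of all genes. Those 4 were Pla2g7 at 2.76 ± 0.70 on the log2 scale (SE, adjusted p = 0.145), Ptgs1 at 2.19 ± 0.67 (0.287), Alox5ap at -0.86 ± 0.32 (0.430) and Pla2g2d at 5.17 ± 2.26 (0.568). Pla2g7 passed there with DESeq2 (adjusted p = 0.00957) and with the replicate number as a block (0.0209), and Pla2g2d, Pla2g7 and Ptgs1 passed with no filter on low counts. Single libraries moved these values. That of Pla2g2d was 3.56 without CD11b-low KO replicate 1 of 12 weeks and 6.48 without WT replicate 2 of 12 weeks. The Ptgs1 value was 1.53 without 4-week WT replicate 3, and that of Pla2g7 was 3.43 without 4-week KO replicate 1.

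Counts of genes whose libraries did not overlap matched the calls between CD11b-low KO and WT cells of 12 weeks and were higher in the other comparisons of 12 weeks. Between CD11b-low KO and WT cells of 12 weeks, 3 of 10 genes lay wholly above and 1 wholly below, where 9.82% and 7.99% of all genes did. Between CD11b-high and CD11b-low KO cells, Pla2g7 and Ptgs2 lay wholly above and Alox5ap and Ltc4s wholly below, where 7.90% and 5.86% of all genes did. Between CD11b-high KO and WT cells, 6 of 10 lay wholly above and 1 wholly below, where 15.6% and 10.8% of all genes did.

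Several of the 10 genes are also made by other leukocytes, and summed markers of some of those cells differed between the same groups. Between CD11b-high KO and WT cells, 9.23% of all tested genes were higher and 5.60% lower, shares to set beside the counts below. Of 14 alveolar macrophage markers, 2 were higher and 3 lower in that comparison. Between CD11b-high and CD11b-low KO cells, 0 of the 14 passed, where 0.693% of all genes did. There 3 of them lay wholly below and 0 wholly above, where 5.86% and 7.90% of all genes did. Neutrophil markers summed to 469 to 559 CPM in CD11b-high KO, 185 to 262 CPM in CD11b-low KO and 93.5 to 133 CPM in WT libraries of 12 weeks, and 5 of 8 tested rose between CD11b-high KO and WT cells; Ly6g itself had 0 counts in all libraries. Dendritic cell markers summed to 173 to 669 CPM in CD11b-high KO, 129 to 171 CPM in CD11b-low KO and 87.1 to 105 CPM in WT libraries, with 7 of 13 tested genes higher and 1 lower. Monocyte and monocyte-derived macrophage markers summed to 261 to 687 CPM in CD11b-high KO, 248 to 362 CPM in CD11b-low KO and 196 to 402 CPM in WT libraries, with 10 of 15 tested genes higher. The ranges of these groups overlapped. Eosinophil sums were 554 to 1436 CPM in CD11b-high KO, 508.5 to 1099 CPM in CD11b-low KO and 736 to 1489 CPM in WT libraries. These overlapped too, with 3 of 4 tested genes higher and 1 lower in CD11b-high KO than in WT cells. Mast cell and basophil markers summed to 6.64 to 28.1 CPM in CD11b-high KO, 0.915 to 1.53 CPM in CD11b-low KO and 0.563 to 0.987 CPM in WT libraries; most of the first range was Hdc, at a mean of 16.2 CPM, while Fcer1a, Ms4a2, Mcpt4 and Mcpt8 had 0 counts in all libraries. Platelet markers summed to 33.9 to 69.5 CPM in CD11b-high KO, 12.0 to 36.1 CPM in CD11b-low KO and 7.03 to 11.3 CPM in WT libraries, nearly all of it Pf4. The part of these cells in the differences of Pla2g2d, Pla2g7, Ptgs1, Ptgs2 and Hpgds was not tested, and in sorted pools more cells of a type cannot be told apart from more RNA per cell.

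Over all 15 libraries, the genes fell into a few patterns, described here without a test since libraries of a group share their condition. On log2 CPM, Pla2g2d and Pla2g7 were correlated with a Pearson r of 0.880, Pla2g15 and Alox5 with 0.874, and Pla2g7 and Ptgs2 with 0.829, while Alox5ap and Ptgs1 ran opposite, at -0.820. Of 8502 other genes searched, those most like Pla2g2d were Tmem171 (0.969), Acp5 (0.965) and Mfge8 (0.962), and those most like Pla2g7 were Slc11a1 (0.974), Pmp22 (0.959) and Ifitm3 (0.957). Ptgs2 was nearest to Mmp13 (0.941), C1qb (0.939) and S100a9 (0.927), and Ptgs1 to Ptpre (0.913), Maml2 (0.911) and Hsd17b7 (0.910). With 0 to 5 counts of Ptgs2 in each CD11b-low library, its r values rest largely on the CD11b-high libraries. Those of Pla2g2d likewise rest largely on the KO libraries of 12 weeks, as other libraries had 0 to 17 counts. Alox5ap was nearest to Clec4b1 (0.980), Ear1 (0.968) and Fam187b (0.968), Alox5 to C5ar1 (0.975), Irak4 (0.974) and Krt80 (0.971), and Ltc4s to Eif4a3 (0.975), Usf1 (0.961) and Arpc4 (0.954). The nearest genes were Bzw1 (0.987), Capza1 (0.987) and Ap5m1 (0.971) for Pla2g4a, Mbnl3 (0.951), Xab2 (0.941) and Klf13 (0.941) for Pla2g15, and Zbtb21 (0.836), Slc43a3 (0.765) and Gpx3 (0.764) for Hpgds.

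Of the other pathway genes that passed between CD11b-low KO and WT cells of 12 weeks, the receptors for PAF and prostacyclin changed most. Of 8 tested receptor genes, 2 rose and 1 fell in KO relative to WT CD11b-low cells of 12 weeks, where 2.60% and 0.497% of all genes did. Ptafr, the PAF receptor, averaged 320.4 ± 148 CPM in CD11b-high KO, 83.9 ± 15.7 CPM in CD11b-low KO and 5.74 ± 2.27 CPM in WT cells of 12 weeks (SD, n = 3 each). Its log2 difference was 3.87 ± 0.38 between CD11b-low KO and WT cells (SE, adjusted p = 3.38e-05, edgeR), 5.80 ± 0.42 between CD11b-high KO and WT cells (3.66e-07) and 1.93 ± 0.35 between CD11b-high and CD11b-low KO cells (0.0156). Ptgir, the prostacyclin receptor, averaged 149 ± 23.9 CPM in CD11b-high KO, 71.1 ± 15.4 CPM in CD11b-low KO and 7.21 ± 5.46 CPM in WT cells, and rose by 3.29 ± 0.43 in CD11b-low KO (adjusted p = 0.000329) and 4.36 ± 0.45 in CD11b-high KO cells (7.75e-06), both relative to WT. Fpr2, which binds formyl peptides and lipoxin A4, went the other way, at 68.4 ± 2.02 CPM in CD11b-high KO, 148 ± 22.9 CPM in CD11b-low KO and 261 ± 36.4 CPM in WT cells, with log2 differences of -0.82 ± 0.20 between CD11b-low KO and WT cells (adjusted p = 0.0373), -1.11 ± 0.21 between CD11b-high and CD11b-low KO cells (0.0184) and -1.93 ± 0.21 between CD11b-high KO and WT cells (1.24e-05). Ptger2, an E-prostanoid receptor, and Ptgfrn did not pass in any comparison with edgeR and the filter, at 33.5 ± 6.57 and 19.2 ± 6.39 CPM in CD11b-high KO cells and 44.7 ± 15.5 and 27.8 ± 16.1 CPM in WT cells of 12 weeks.

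Removing 1 library ended some of these receptor calls. The Ptafr difference between CD11b-high and CD11b-low KO cells was lost without CD11b-high replicate 2 or 3 or any CD11b-low KO replicate of 12 weeks, at adjusted p values of 0.0534 to 0.0916, and that of Fpr2 without replicate 2 or 3 of either group, at 0.0828 to 0.0977. For Fpr2 between CD11b-low KO and WT cells of 12 weeks the call was lost without 1 of 10 libraries, at 0.0506 to 0.0996: CD11b-high KO replicate 2, CD11b-low KO replicates 1 and 2 and WT replicates 1 and 2 of 12 weeks, KO replicates 2 and 3 and all 3 WT replicates of 4 weeks. The Ptgir value came to 4.13 between CD11b-low KO and WT cells and 5.19 between CD11b-high KO and WT cells without WT replicate 2, and passed in both.

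Genes that release or return arachidonate by other routes fell into 2 lists. Of all genes, by the same test, 2.60% were higher and 0.497% lower between CD11b-low KO and WT cells of 12 weeks, and 9.23% were higher and 5.60% lower between CD11b-high KO and WT cells. In the list of other phospholipase A2 and PAF acetylhydrolase genes, 1 of 9 tested rose between CD11b-low KO and WT cells, Pla2g6, a calcium-independent phospholipase A2, at 20.6 ± 2.67 CPM in KO and 11.5 ± 2.34 CPM in WT cells (0.84 ± 0.21 on the log2 scale, SE, adjusted p = 0.0403, edgeR). Between CD11b-high KO and WT cells 2 of 9 rose, Pla2g6 by 1.22 ± 0.21 (0.00105) and Pafah2, an intracellular PAF acetylhydrolase, by 2.92 ± 0.55 (0.00174), with 0 lower. Pnpla8 and Pafah1b1 did not pass in any comparison with edgeR and the filter, at 159 ± 24.4 and 39.7 ± 5.66 CPM in CD11b-high KO cells and 226 ± 96.3 and 51.8 ± 14.9 CPM in WT cells of 12 weeks. In the list of re-esterification and monoacylglycerol genes, 1 of 14 rose between CD11b-low KO and WT cells and 3 of 14 between CD11b-high KO and WT cells, with 0 lower in both. Acsl4, an acyl-CoA synthetase that favours arachidonate, averaged 145 ± 28.1 CPM in CD11b-high KO, 79.7 ± 15.5 CPM in CD11b-low KO and 34.5 ± 15.8 CPM in WT cells, a log2 difference of 2.07 ± 0.31 (adjusted p = 0.000278) and 1.21 ± 0.31 (0.0391) from WT. Lpcat2, which makes PAF by acetylation, and Acsl3 rose in CD11b-high KO cells, by 2.88 ± 0.59 (0.00354) and 2.26 ± 0.68 (0.0335) relative to WT. The Lpcat2 value was 3.66 without WT replicate 1 and still passed. Anxa1 and Mgll did not pass in any comparison with edgeR and the filter, with Anxa1 at 3037 to 4073 CPM in CD11b-high KO and 1137 to 3499 CPM in WT libraries of 12 weeks and Mgll at 236 ± 43.8 CPM in CD11b-high KO and 142 ± 40.3 CPM in WT cells.

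In the list of other lipoxygenase, leukotriene and epoxide genes, 1 of 16 tested rose and 1 fell between CD11b-low KO and WT cells of 12 weeks, where 2.60% and 0.497% of all genes did. Between CD11b-high KO and WT cells 3 rose and 1 fell, where 9.23% and 5.60% of all genes did. Ephx2, the soluble epoxide hydrolase, averaged 5.66 ± 0.62 CPM in CD11b-high KO, 1.75 ± 0.79 CPM in CD11b-low KO and 0.491 ± 0.199 CPM in WT cells, and rose by 3.53 ± 0.46 (adjusted p = 6.94e-05, edgeR) and 1.84 ± 0.45 (0.0328) on the log2 scale relative to WT. Ephx1, the microsomal epoxide hydrolase, rose in CD11b-high KO cells by 1.42 ± 0.30 relative to WT (0.00435). Mgst3, a microsomal glutathione transferase of the same protein family as Alox5ap and Ltc4s, followed Alox5ap, at 299 ± 16.2 CPM in CD11b-high KO, 523 ± 149 CPM in CD11b-low KO and 1065 ± 315 CPM in WT cells, with log2 differences of -1.83 ± 0.25 (0.000108) and -1.03 ± 0.25 (0.0296) from WT. Alox15, the 12/15-lipoxygenase, rose in CD11b-high KO cells by 6.15 ± 1.68 (0.0238), with 0.204, 0.898 and 13.6 CPM as lowest, median and highest library against 0, 0 and 0.201 CPM in WT cells. Without CD11b-high replicate 2 the Alox15 value was 3.02 (0.259). Without WT replicate 1, 2 or 3 it was 10.3, 5.49 or 5.65 (0.0553, 0.0886 and 0.0705). Alox15 is also on the eosinophil list, where Epx had 0 counts in all libraries. Dpep2 and Cyp4f18 did not pass in any comparison with edgeR and the filter, and neither did Lta4h, which makes leukotriene B4 and is named here after its values were seen, at 183 ± 47.7 CPM in CD11b-high KO, 258 ± 37.7 CPM in CD11b-low KO and 201 ± 95.8 CPM in WT cells.

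Among the other prostanoid genes, 0 of 11 tested passed between CD11b-low KO and WT cells of 12 weeks with edgeR, and 3 did at an unadjusted p under 0.05, where 20.5% of all genes did. Between CD11b-high KO and WT cells 0 rose and 2 fell, where 9.23% and 5.60% of all genes did. These were Ptges2, a prostaglandin E synthase, by -1.38 ± 0.41 on the log2 scale (SE, adjusted p = 0.0323, edgeR) and Akr1b3, an aldose reductase with prostaglandin F synthase activity, by -0.82 ± 0.22 (0.0212). Tbxas1, the thromboxane synthase, and Ptges3 did not pass in any comparison with edgeR and the filter; Tbxas1 averaged 349.9 ± 45.4 CPM in CD11b-high KO, 404 ± 22.1 CPM in CD11b-low KO and 334 ± 181 CPM in WT cells of 12 weeks.

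Single libraries decided several of these calls. Between CD11b-low KO and WT cells of 12 weeks, Pla2g6 lost its call without 1 of 11 libraries, at adjusted p values of 0.0511 to 0.159: CD11b-high KO replicate 2, CD11b-low KO replicates 2 and 3, WT replicates 1 and 2 of 12 weeks, and each library of 4 weeks. Acsl4 lost it without CD11b-low KO replicate 2 or 3, WT replicate 1 or 2, any 4-week KO library or 4-week WT replicate 2, at 0.0582 to 0.104. Mgst3 lost it without CD11b-low KO replicate 1 (0.0826), CD11b-low KO replicate 2 (0.113) or WT replicate 1 (0.0702), and Ephx2 without CD11b-low KO replicate 1 or 2 or WT replicate 2 or 3, at 0.0621 to 0.149. Between CD11b-high KO and WT cells, Acsl3 lost its call without CD11b-high replicate 1 or 2 or WT replicate 2 or 3, at 0.0671 to 0.102. Ptges2 lost it without CD11b-high replicate 2 or 3 or WT replicate 1 (0.147, 0.101 and 0.178), its value being -0.72 without the last. Akr1b3 lost it without CD11b-high replicate 2 or 3 or WT replicate 2 (0.101, 0.0755 and 0.0863).

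In 4-week mice, 0 genes of these 5 lists passed between KO and WT cells with edgeR, where 0.0979% of all genes did. At an unadjusted p under 0.05 there were 2, Pafah2 and Ptges, where 1.50% of all genes passed. Between 12 and 4 weeks, 4.81% of all genes were higher in CD11b-low KO cells, and 8.79% were higher and 8.39% lower in WT cells. With age, CD11b-low KO cells had higher Ephx1, by 2.43 ± 0.31 on the log2 scale (SE, adjusted p = 0.000236, edgeR), Ptafr, by 1.98 ± 0.35 (0.00333), Mgst2, by 1.53 ± 0.33 (0.0115), Mgst3, by 1.02 ± 0.25 (0.0205), Lpcat2, by 2.32 ± 0.59 (0.0271), Ptgr1, by 0.86 ± 0.22 (0.0298) and Abhd6, by 1.04 ± 0.29 (0.0406), and 0 of the listed genes lower. Of these, Ephx1 and Ptafr passed without any 1 library, while Mgst2, Mgst3, Lpcat2, Ptgr1 and Abhd6 each lost the call without 1 or more KO libraries of either age, at 0.0506 to 0.159, and Abhd6 also without any 1 WT library of 4 weeks. The Lpcat2 value was 1.46 without CD11b-low KO replicate 1 of 12 weeks (0.159). WT cells had Mgst1, Mgst2, Mgst3 and Ephx1 among the genes higher at 12 weeks, Mgst3 by 1.89 ± 0.25 (0.00108), while Ptgir and Ptafr were lower, by -1.74 ± 0.41 (0.00955) and -1.18 ± 0.35 (0.0299). The Ptgir value was -2.58 without WT replicate 2 of 12 weeks. The Ptafr call in WT cells was lost without WT replicate 1 or 2 of 12 weeks or 4-week WT replicate 2 or 3, at 0.0558 to 0.102.

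**Figure D4:**
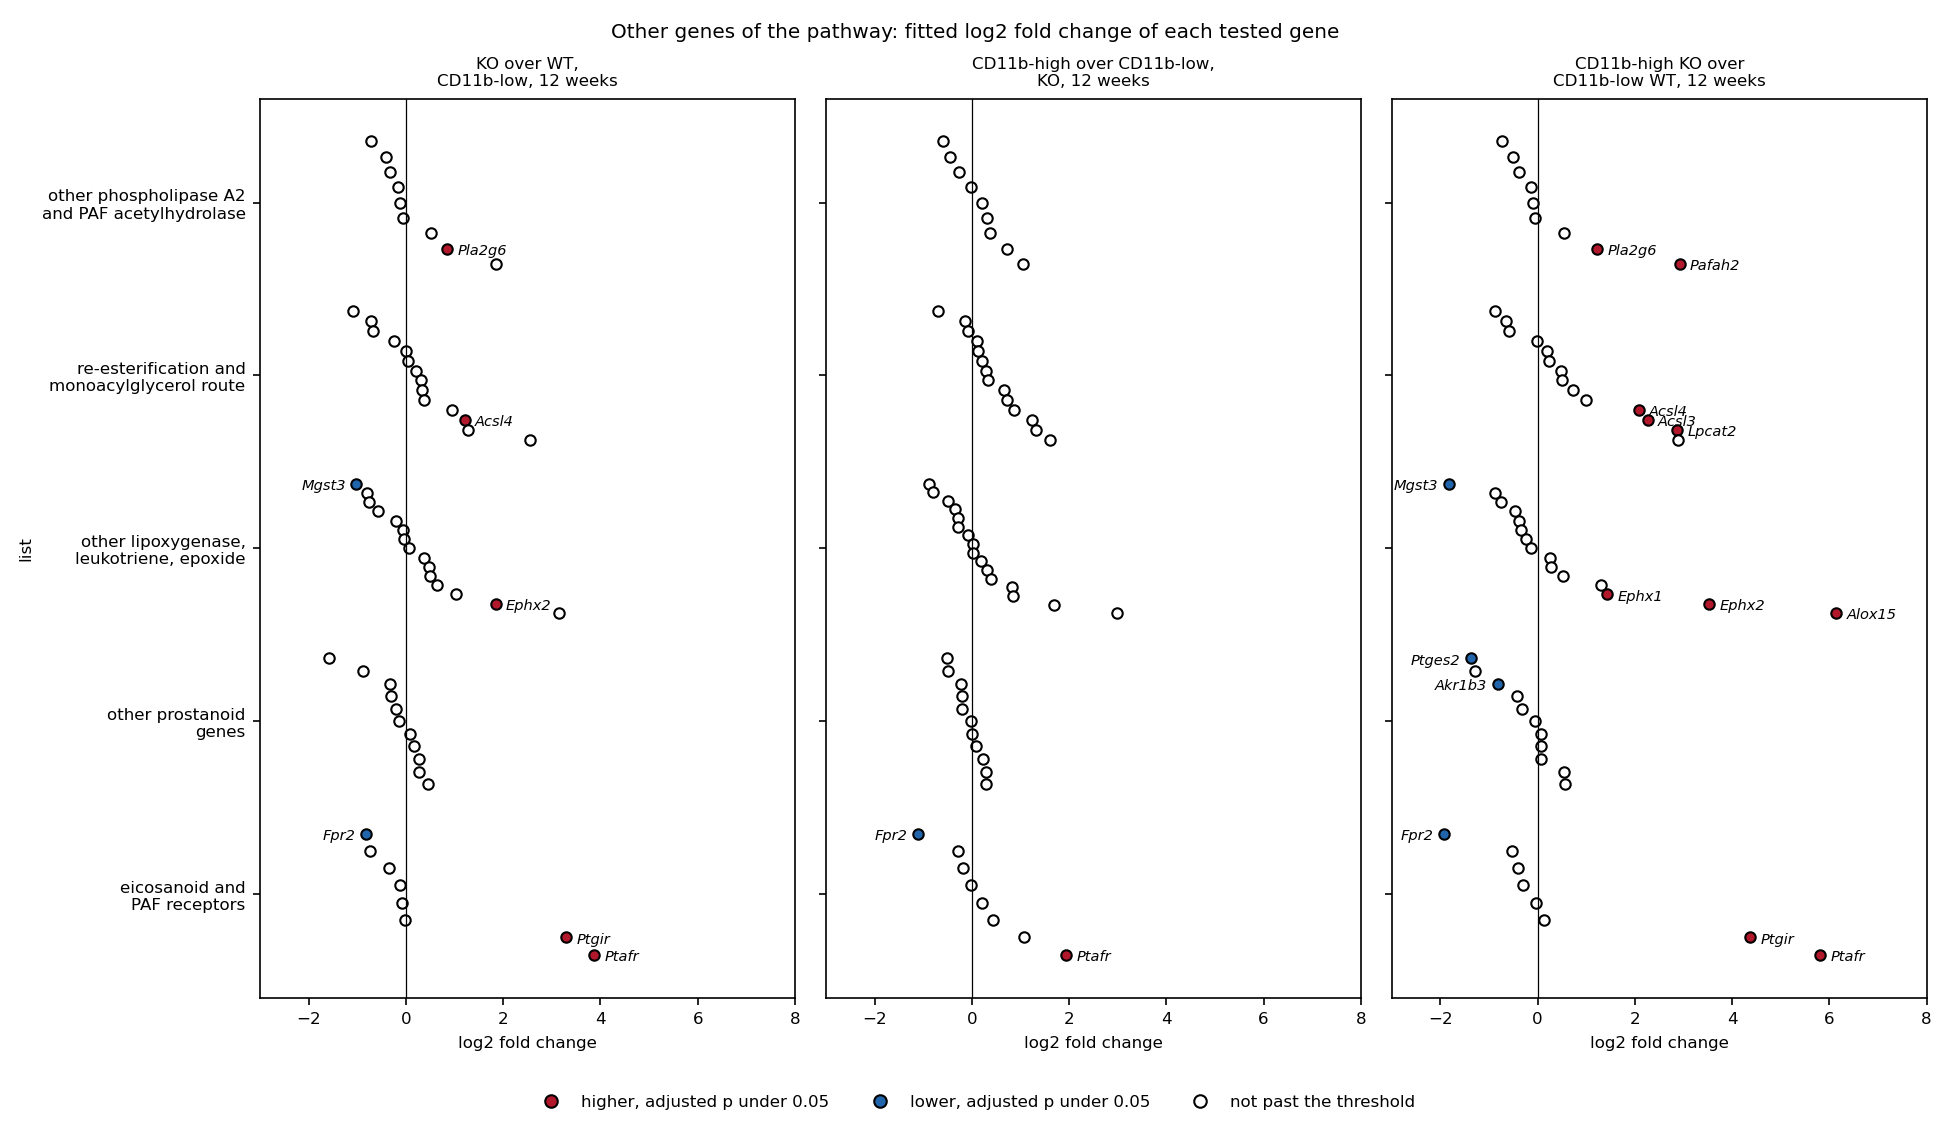
Fitted log2 fold change of each tested gene in 5 lists of other pathway genes, in 3 comparisons of 12-week libraries, one point per gene, filled and named where the adjusted p was under 0.05; Ggt1 is left out of the comparisons with WT cells, whose libraries of 12 weeks are all at 0. Ptafr and Ptgir lie farthest to the right among genes of the receptor list in both comparisons of KO with WT cells, at 3.87 and 3.29 in CD11b-low cells, and Fpr2 lies to the left of 0 in all 3.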

How the data were processed

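RNA from 15 pools of sorted alveolar macrophages was sequenced. The deposited table holds raw read counts per gene that the authors made; per the submitters' processing notes the tools were STAR, Subread and featureCounts, and the genome build, versions and strand setting are not given in the sources used here. From the 40780 lines, 270 repeated ones were removed, which left 40510 genes. Genes under edgeR's filter (10 counts, 15 in total) were left out, and the 13284 others were tested in 1 model of the 5 groups with TMM scaling and edgeR 4.0.16's robust quasi-likelihood test (R 4.3.3, 10 residual degrees of freedom, two-sided, Benjamini-Hochberg, threshold 0.05). Every adjusted p comes from it unless DESeq2 1.42.0 or limma 3.58.1 (voom with library weights) is named. Fold estimates were checked on counts simulated from the fitted spread, with changes set only in genes above a set level. The simulation held no library that stood apart and no shared pools, so it does not cover these features of the data. Pools are the replicates, and the tests set each difference against the spread between pools. That spread was estimated over all 5 groups with information shared between genes, so libraries outside a comparison also affect its p-values.

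The members and lists were chosen with earlier results of these data known. Genes named from a pathway list were up to 4 that passed per comparison, by adjusted p, and per list the 2 with the highest mean CPM among those that did not pass. Lta4h is outside this rule. Log2 differences of the 10 genes are printed where the unadjusted p was under 0.05. CPM per kb used the exonic length in GENCODE M21. Positions are from that annotation and promoters from RefSeq, both on GRCm38, and were joined to the table by Ensembl ID or symbol. The alternatives tried were another scaling, no filter, no robust spread, the other tools, only the groups compared, a replicate block and leaving out each library. The same-numbered CD11b-high and CD11b-low KO libraries of 12 weeks deviated together (r of 0.624, 0.518 and 0.177 over genes). The labels state no pairing, so whether they share pools of mice is not known. The main test treated them as independent. With a block for the number in these 2 groups, Pla2g7 was still the 1 gene called between them.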

Additional observations from a re-analysis of the deposited data

Results flagged for a closer look

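Ptafr, the PAF receptor, was singled out because the difference between KO and WT CD11b-low cells was itself different at 12 and at 4 weeks. The interaction was 3.15 on the log2 scale (edgeR, adjusted p = 0.0177). The KO over WT difference was 3.87 at 12 weeks (adjusted p = 3.38e-05) and 0.72 at 4 weeks, where it did not pass. Group means were 83.9 ± 15.7 CPM in KO and 5.74 ± 2.27 CPM in WT cells of 12 weeks, and 21.3 ± 4.40 CPM in KO and 12.97 ± 2.26 CPM in WT cells of 4 weeks (SD, n = 3 each). The interaction kept its direction when any 1 library was left out and lost its call without 4-week KO replicate 3 (2.99, adjusted p = 0.0655).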

How the results depend on the processing

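Of the 10 genes, the number that passed between CD11b-low KO and WT cells of 12 weeks was 4, and it was 1 with limma voom, 2 with only the groups compared and 1 to 4 without 1 library. Between CD11b-high and CD11b-low KO cells it was 1, and 3 with no filter, 3 with DESeq2, 2 with limma voom, 0 with only the groups compared and 0 to 2 without 1 library. Between CD11b-high KO and WT cells it was 6, and 9 with no filter, 7 with limma voom, 4 with only the groups compared and 4 to 7 without 1 library. At 4 weeks it stayed at 0. With age it was 2 in KO cells, also without any 1 library, and 2 in WT cells, with 5 under no filter, 5 with limma voom and 1 to 2 without 1 library. The interaction called 0 genes, and 3 with no filter, 1 with DESeq2, 1 with the replicate block and 0 without any 1 library.

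Over all genes, the 412 calls between CD11b-low KO and WT cells of 12 weeks were 1090 with no filter, 873 with DESeq2, 189 with only the groups compared and 230 to 439 without 1 library. The 92 between CD11b-high and CD11b-low KO cells were 533, 265 and 18 in the same settings, 173 with limma voom and 2 to 247 without 1 library. The 1970 between CD11b-high KO and WT cells were 793 with only the groups compared and 952 to 2176 without 1 library. The 13 at 4 weeks were 73 with no filter, 22 with DESeq2, 25 with limma voom, 4 with only the groups compared and 4 to 15 without 1 library. The 915 with age in KO cells were 1395, 1685, 2631 and 1646 in those settings and 235 to 1979 without 1 library, and the 2282 in WT cells were 3961 with limma voom, 1123 with only the groups compared and 1069 to 2528 without 1 library. The 33 interaction calls were 321 with no filter, 150 with DESeq2, 66 with the replicate block and 3 to 38 without 1 library.

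For the 28 member results printed with a log2 difference, 619 values under other settings gave 537 on the same side of the threshold, 61 lost, 21 gained and 0 of opposite sign. The 38 member results with an unadjusted p of 0.05 or more, whose values are not printed, gave 45 opposite signs among 839 values, in 19 results. With the replicate block the Ptgs1 difference between CD11b-low KO and WT cells of 12 weeks was lost (adjusted p = 0.0625) and the Pla2g7 interaction gained (0.0209); of the other genes named, Pla2g6 in the first comparison (0.0518) and Alox15 between CD11b-high KO and WT cells (0.0525) lost their calls, and the block changed no other call. Same-numbered CD11b-low KO and WT libraries of 12 weeks correlated at 0.480, 0.0558 and 0.358, and the labels state no pairing for these either. Depth limits Ptgs2, with 0 to 5 counts in each CD11b-low library, and Pla2g2d outside 12-week KO cells, with 0 to 17 counts.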
